A study of Mus musculus with 2 samples.

Results

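Polyadenylated RNA of the adult mouse ovary was examined for 10 genes of the transforming growth factor beta (TGF-beta) system, taken by their Ensembl gene identifiers from 43346 measured mouse genes. They were the ligand genes Tgfb1, Tgfb2 and Tgfb3, the latent binding protein genes Ltbp1, Ltbp3 and Ltbp4, the receptor genes Tgfbr1 and Tgfbr2, and the signal transducer genes Smad2 and Smad3. All 10 were found, with 46 annotated transcripts. The tissue was whole ovary of 8-week-old female littermates of strain C57BL/6J, with no treatment or transgene named, and it was sequenced as 2 libraries of 1 group, replicate 1 and replicate 2. The labels call these biological replicates but cite 1 donor record for both, so spread and p-values describe these 2 libraries and may be partly technical. The design holds no comparison between groups. What could be compared was the level of the genes with each other, the forms in which each was annotated, and replicate 2 with replicate 1.

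TGF-beta ligands are secreted as dimers that stay bound to their own propeptide, and that inactive complex is tied to the matrix by latent TGF-beta binding proteins. Proteases and integrins release the ligand. It then binds the type II receptor, which recruits and phosphorylates the type I receptor, and the type I receptor phosphorylates SMAD2 and SMAD3, which enter the nucleus with SMAD4 and regulate genes. In the ovary the pathway is known for acting on granulosa cells, theca cells and stroma, and on the matrix around follicles.

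For 3 of the genes the annotated proteins differ by a short stretch that is spliced in or left out, and transcripts are classed by these stretches further on. The shares themselves were estimated over whole transcripts. Only the Tgfbr2 forms have deposited lengths that differ by the stretch alone. In each sequence the capitals mark the alternative bases and the lower-case letters the 12 bases that flank them in the transcript that includes them. All 3 stretches keep the reading frame. The exon of Tgfb2 lies within the coding sequence at chr1:186690721-186690804 on the minus strand of mm10, spans 84 bases or 28 codons, and has a GC content of 56.0%. That of Tgfbr1 is a 12-base (4-codon) extension of an exon at chr4:47393247-47393258 on the plus strand. That of Tgfbr2 is a 75-base (25-codon) exon at chr9:116158271-116158345 on the minus strand.
Tgfb2 exon: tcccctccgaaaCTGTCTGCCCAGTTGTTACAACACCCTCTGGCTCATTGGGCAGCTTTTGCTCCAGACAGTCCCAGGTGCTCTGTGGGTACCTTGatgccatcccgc
Tgfbr1 extension: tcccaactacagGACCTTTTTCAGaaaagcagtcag
Tgfbr2 exon: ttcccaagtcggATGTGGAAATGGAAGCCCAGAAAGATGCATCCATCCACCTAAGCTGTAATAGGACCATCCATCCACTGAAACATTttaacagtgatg

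Ltbp1 and Ltbp4 each have annotated coding transcripts that begin at separate starts, and the bases before each start are shown because the libraries used 1 start of each pair far more than the other. They come from RefSeq's promoter table on GRCm38.p6, which is the mm10 sequence, 5′ to 3′ on the gene's strand, and end before the first transcribed base of that start. Capitals mark the GC box, searched as GGGCGG on both strands with overlapping matches counted. The window of 250 bases before the downstream Ltbp4 start (chr7:27333664-27333913, minus strand) had a GC content of 79.2%, 28 CG dinucleotides and 7 GC boxes. RefSeq's window before the upstream Ltbp4 start had a GC content of 64.4%, 15 CG dinucleotides and 3 GC boxes, and the 170 of its bases that precede the GENCODE start are printed (chr7:27337693-27337862, minus strand). The windows before the upstream (chr17:75005279-75005528, plus strand) and downstream (chr17:75178531-75178780, plus strand) Ltbp1 starts had GC contents of 56.8% and 50.8%, 12 and 7 CG dinucleotides, and no GC box. Of 32851 such windows in the table, 32.7% held a GC box, the median GC content was 52.4% and the median number of CG dinucleotides was 6. The letters TATAAA, found on either strand in 12.4% of all windows, were in none of these 4. These matches describe the letters and are not measured binding sites.
Ltbp4 before the downstream start: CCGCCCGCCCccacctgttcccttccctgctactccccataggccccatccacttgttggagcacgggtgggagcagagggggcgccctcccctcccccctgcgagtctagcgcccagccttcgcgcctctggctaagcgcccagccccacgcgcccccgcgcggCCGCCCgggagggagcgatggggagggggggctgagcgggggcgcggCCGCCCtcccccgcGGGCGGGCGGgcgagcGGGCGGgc
Ltbp4 before the upstream start: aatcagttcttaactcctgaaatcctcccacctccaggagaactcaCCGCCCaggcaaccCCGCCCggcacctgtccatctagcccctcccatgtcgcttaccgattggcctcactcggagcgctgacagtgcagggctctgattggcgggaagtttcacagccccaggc
Ltbp1 before the upstream start: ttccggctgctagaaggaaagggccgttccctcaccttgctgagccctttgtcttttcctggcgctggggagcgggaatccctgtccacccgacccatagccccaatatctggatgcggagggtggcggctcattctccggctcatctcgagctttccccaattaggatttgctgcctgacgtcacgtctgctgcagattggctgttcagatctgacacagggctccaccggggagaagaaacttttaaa
Ltbp1 before the downstream start: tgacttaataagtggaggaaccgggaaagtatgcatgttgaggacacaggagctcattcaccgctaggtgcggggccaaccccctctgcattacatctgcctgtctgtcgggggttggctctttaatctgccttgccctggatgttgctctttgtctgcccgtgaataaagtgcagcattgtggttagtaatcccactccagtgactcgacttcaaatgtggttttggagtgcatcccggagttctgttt

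The libraries held 41124061 gene counts in replicate 1 and 34930860 in replicate 2. Levels are given in TPM, the share of all transcripts scaled to a fixed total, which divides by transcript length and so allows genes to be compared, as the mean ± SD of n = 2 libraries. Of 21474 protein-coding genes, 13312 reached 1 TPM in both libraries, which is what detected means here, with a median of 17.8 TPM. Of 3 platelet markers, 2 were detected, and the other, Ppbp, was at 0.28 TPM in replicate 1 and 1.16 TPM in replicate 2. Markers of granulosa cells, oocytes, theca and luteal cells were all present (13 of 13 detected), and so were all 3 oviduct, 3 fat, 4 stroma, 3 smooth muscle, 3 endothelium and 4 blood and immune markers. RNA of neighbouring structures was thus present beside that of the ovary, and in such bulk RNA fewer cells of a type cannot be told apart from less RNA per cell.

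All 10 genes were detected in both libraries, with a median of 55.4 TPM. The binding proteins led and 1 ligand came last. Their levels spanned from 457 TPM for Ltbp4 to 3.58 TPM for Tgfb2, and 7 of the 10 stood above the median of detected protein-coding genes. The exceptions were Smad2, Tgfbr1 and Tgfb2.

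**Figure D1:**
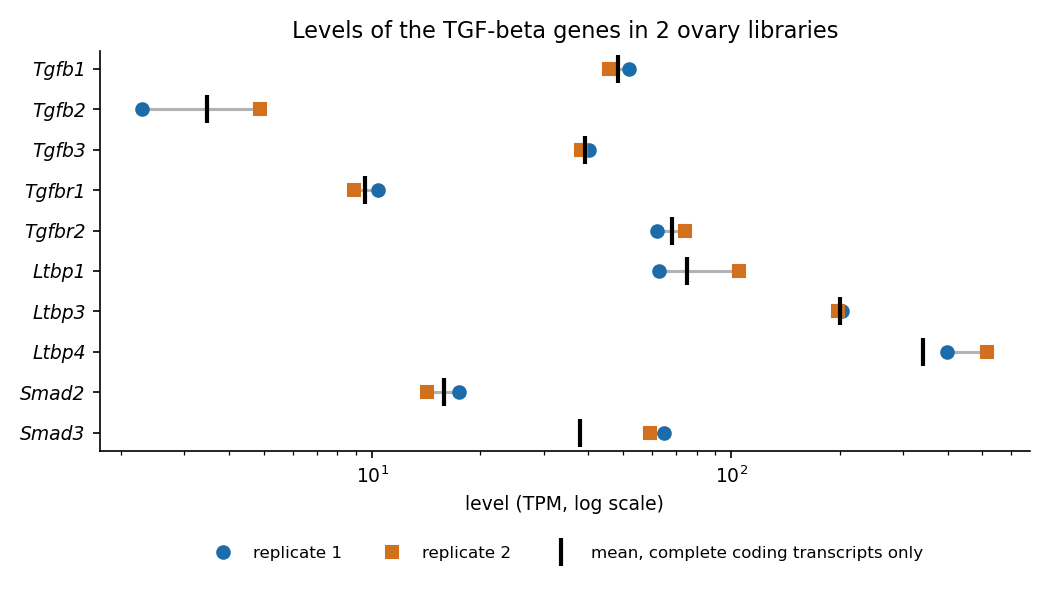
Level of each gene in TPM on a log axis, with replicate 1 as a circle, replicate 2 as a square and a grey line joining them; the black bar is the mean over complete coding transcripts only. Ltbp4 sits highest at 397.59 and 516.38 TPM and Tgfb2 lowest at 2.29 and 4.88 TPM, and the black bar falls well below both libraries for Ltbp4 and Smad3.

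Among the ligands, Tgfb1 and Tgfb3 carried nearly all of the RNA. Tgfb1 (ENSMUSG00000002603.11, chr7:25687002-25705077, plus strand), the ligand best known from immune cells and fibrosis, was at 51.84 TPM in replicate 1 and 45.51 TPM in replicate 2, on 2958 and 2196 counts (48.7 ± 4.48 TPM). Tgfb3 (ENSMUSG00000021253.6, chr12:86056745-86079041, minus strand), a ligand known for its part in palate closure, was at 40.16 and 38.15 TPM, on 3746 and 2981 counts (39.2 ± 1.42 TPM). Tgfb1 was above Tgfb3 in both libraries and their ranges did not overlap.

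Tgfb2 (ENSMUSG00000039239.10, chr1:186622792-186705989, minus strand), a ligand needed for heart and skeletal development, was the lowest of the 10. Its level was 2.29 TPM in replicate 1 and 4.88 TPM in replicate 2, on 231 and 405 counts. It had the widest relative gap between the libraries, and it ranked 11243rd of the protein-coding genes by mean TPM, against 3470th for Tgfb1 and 4131st for Tgfb3. Of the summed ligand TPM, Tgfb1 made up 55.0% and 51.4%, Tgfb3 42.6% and 43.1%, and Tgfb2 2.43% and 5.51%, in replicates 1 and 2.

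Tgfb1 and Tgfb3 were each read from 1 transcript. Tgfb1-201, which encodes 390 codons, took 99.0% and 99.6% of the gene's TPM in the 2 libraries. Tgfb3 has a single transcript in the tables, of 412 codons. The gene's span shares 5149 bases with Ttll5 on the opposite strand, which had 800 and 530 counts, and the sources used here do not say whether counting used the strand.

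Tgfb2 was split between a coding transcript with the 84-base exon printed above, Tgfb2-206 of 442 codons, and one without it, Tgfb2-201 of 414 codons. The exon adds residues to the propeptide and not to the mature ligand. These transcripts differ in more than the exon, with deposited lengths of 3485 bases for Tgfb2-206 and 5116 for Tgfb2-201. The part of those other bases in the shares was not tested. Transcripts with the exon took 70.9% of the TPM that could be classed in replicate 1 and 94.1% in replicate 2. By estimated counts these shares were 61.9% and 91.3%, from 140.91 counts with and 86.57 without in replicate 1, and 369.65 with and 35.35 without in replicate 2. The form with the exon led in both libraries, and it was the form that was higher in replicate 2: it was at 1.46 and 4.59 TPM in replicates 1 and 2, while the form without it was at 0.60 and 0.29 TPM. The deposited bounds of the 2 libraries did not overlap for the form with the exon (1.14 to 1.75 TPM and 4.04 to 5.01 TPM) and overlapped for the form without it (0.430 to 0.780 TPM and 0.172 to 0.452 TPM). No source used here states the confidence level of those bounds.

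The latent binding proteins were the most abundant of the 10 genes. Ltbp4 (ENSMUSG00000040488.12, chr7:27305136-27337692, minus strand), a matrix protein best known for elastic fibre assembly, was at 397.59 TPM in replicate 1 and 516.38 TPM in replicate 2, on 44261 and 48776 counts (457 ± 84.0 TPM). Ltbp3 (ENSMUSG00000024940.10, chr19:5740904-5758532, plus strand), known for roles in bone and teeth, was at 203.33 and 197.7 TPM, on 29819 and 24224 counts (200.5 ± 3.98 TPM). Ltbp4 exceeded Ltbp3 in both libraries with no overlap.

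Ltbp1 (ENSMUSG00000001870.11, chr17:75005568-75392512, plus strand), the founding member that binds the latent complex to fibrillin-rich matrix, was lower and more unequal. It was at 62.76 TPM in replicate 1 and 105.26 TPM in replicate 2, on 10583 and 14714 counts (84.0 ± 30.1 TPM). By rank of mean TPM among protein-coding genes Ltbp4 was 249th, Ltbp3 790th and Ltbp1 2098th. Of the summed binding protein TPM, Ltbp4 made up 59.9% and 63.0%, Ltbp3 30.6% and 24.1%, and Ltbp1 9.46% and 12.8%, in replicates 1 and 2.

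Set against the ligands, the binding protein RNA was in excess in both libraries. The 3 binding protein genes summed to 663.68 TPM in replicate 1 and 819.34 TPM in replicate 2, and the 3 ligand genes to 94.29 and 88.54 TPM. The ratio of these sums was 7.04 and 9.25. It is a ratio of RNA levels, not of proteins. The sums count all annotated transcripts, and the ratio depends on that choice. Over complete coding transcripts alone Ltbp4 was at 295.4 TPM in replicate 1 and 388.34 TPM in replicate 2.

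Ltbp1 and Ltbp4 were read from opposite ends of their annotated start pairs. For Ltbp1 the starts lie 173343 bases apart, and the upstream one leads Ltbp1-201, of 1712 codons, known as the long form. It took 85.7% of the TPM that could be classed in replicate 1 and 94.1% in replicate 2. The transcript from the downstream start with the most RNA, Ltbp1-202 of 1341 codons, was at 8.08 and 5.32 TPM in replicates 1 and 2, while Ltbp1-201 was at 49.12 and 87.71 TPM, so the higher level in replicate 2 lay in the form from the upstream start. The deposited bounds of the libraries did not overlap for Ltbp1-201 (47.2 to 49.6 TPM and 84.9 to 87.9 TPM) or for Ltbp1-202 (6.98 to 9.11 TPM and 4.54 to 5.98 TPM).

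For Ltbp4 the starts lie 4029 bases apart and the downstream one held almost everything. Transcripts from the upstream start, led by Ltbp4-201 of 1666 codons, took 0.271% and 0.152% of the classed TPM, on 122.22 and 75.13 counts. Those from the downstream start, led by Ltbp4-205 of 1600 codons, had 42574.4 and 46819.8 counts. Ltbp4-205 took 74.1% and 75.0% of all the gene's TPM. A record with a retained intron, Ltbp4-209, took 15.5% and 19.8% on 1167.53 and 1665.75 counts. It is 867 bases long, and since the share divides by length a short record gains a large share from few counts. Over complete coding transcripts alone Ltbp4 was at 295.4 and 388.34 TPM (342 ± 65.7 TPM), still the highest of the 10 in both libraries. Ltbp3 has 1 transcript in the tables, of 1253 codons.

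**Figure D2:**
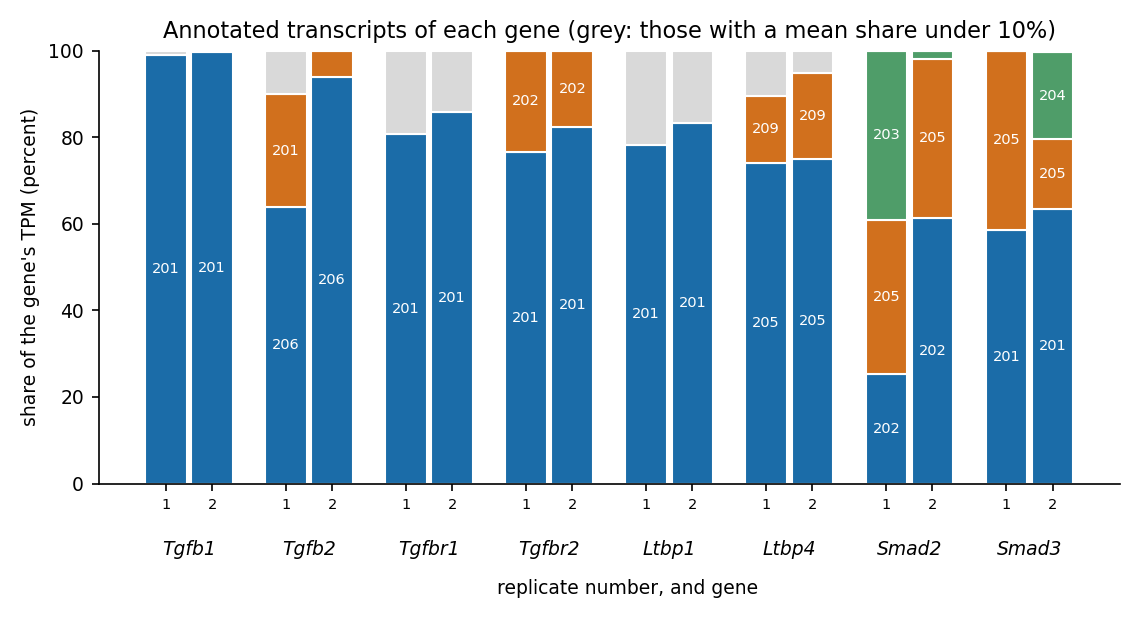
Share of each gene's TPM, in percent, taken by its annotated transcripts in replicates 1 and 2; the white numbers are the transcripts' name endings, grey holds all transcripts with a mean share under 10%, and Tgfb3 and Ltbp3, with 1 transcript each, are left out. Tgfb1 is nearly all transcript 201 in both bars, while the bars of Tgfb2, Smad2 and Smad3 differ between the libraries.

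Of the receptors, the type II gene was the more abundant. Tgfbr2 (ENSMUSG00000032440.8, chr9:116084293-116175360, minus strand), the receptor that first binds the ligand, was at 62.22 TPM in replicate 1 and 74.32 TPM in replicate 2, on 8274 and 8253 counts (68.3 ± 8.56 TPM). Tgfbr1 (ENSMUSG00000007613.11, chr4:47353222-47414931, plus strand), the kinase that phosphorylates the SMADs, was at 10.39 and 8.89 TPM, on 1466 and 1117 counts (9.64 ± 1.06 TPM). Tgfbr2 thus stood 5.99 and 8.36 times above Tgfbr1 on the TPM scale, and the ranges did not overlap.

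Both receptor genes were read mainly from 1 of their forms. Tgfbr1-201, of 503 codons and with the 12-base extension, took 80.7% and 85.8% of the gene's TPM. The extension adds residues outside the cell, near the membrane. Transcripts with it held 82.6% and 86.2% of the classed TPM and 93.4% and 93.3% of the classed estimated counts, so their share moved by more between the scales than between the libraries. There were 2 forms without it. Their deposited lengths, 2861 bases for Tgfbr1-202 and 1829 for Tgfbr1-205, differ from the 5756 of Tgfbr1-201 by more than the extension. The part of those other bases in the shares was not tested. Tgfbr1-202, of 499 codons, was at 0.39 TPM (deposited bounds 0.000016 to 0.966) and 1.04 TPM (0.439 to 1.41), which overlapped. Tgfbr1-205, of 434 codons, was at 1.38 TPM (0.649 to 2.02) and 0.19 TPM (0.0080 to 0.793), which also overlapped. It rested on 65.47 and 7.46 counts.

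For Tgfbr2 the shorter form led. Tgfbr2-201, of 567 codons, lacks the 75-base exon and took 76.7% and 82.5% of the gene's TPM. Tgfbr2-202, of 592 codons and with the exon, which adds residues to the extracellular part, took 23.3% and 17.5%. In TPM the form without the exon was at 47.71 and 61.30 and its bounds did not overlap (45.3 to 48.8 and 58.4 to 62.3), while the form with it was at 14.51 and 13.02 with bounds that did (12.9 to 15.9 and 11.4 to 14.4). The deposited lengths of these forms, 4710 and 4785 bases, differ by exactly the exon, and the share by estimated counts was much the same (23.6% and 17.8%).

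The transducer genes stood apart from each other as well. Smad3 (ENSMUSG00000032402.8, chr9:63646767-63757994, minus strand), whose protein binds DNA directly, was at 64.84 TPM in replicate 1 and 59.31 TPM in replicate 2, on 5869 and 4724 counts (62.1 ± 3.91 TPM). Smad2 (ENSMUSG00000024563.11, chr18:76241580-76310963, plus strand), whose full-length protein does not bind DNA by itself, was at 17.48 and 14.18 TPM, on 887 and 654 counts (15.8 ± 2.33 TPM). Smad3 was higher in both libraries, by 3.71 and 4.18 times in TPM.

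The level of Smad3 depended on which transcripts were counted. Smad3-201, the complete form of 425 codons, took 58.6% and 63.5% of the gene's TPM. An incomplete record of 744 bases, Smad3-205, took 41.4% in replicate 1 on 409.9 counts and 16.0% in replicate 2 on 125.92 counts, and another of 466 bases, Smad3-204, took none and 20.1%, the latter on 76.67 counts. Over complete coding transcripts alone Smad3 was at 37.99 and 37.65 TPM, which lies below Tgfb1, and its ratio to Smad2 was then 2.17 and 2.65.

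The complete Smad2 transcripts differ, among other bases, by a 90-base exon of 30 codons, known to keep the full-length protein from binding DNA. Forms without the exon held 64.3% and 63.5% of the gene's TPM, and forms with it 35.7% and 36.5%. By estimated counts the order turned, with 54.6% and 51.6% for forms with the exon, since TPM divides by length. Smad2-205, which has the exon, was quantified at a deposited length of 2857 bases, though M21 gives it 8089. The forms without the exon were quantified at 1645 (Smad2-202) and 1305 (Smad2-203) bases. Those 2 shorter forms also differ from each other, with 437 codons in Smad2-202 and 434 in Smad2-203. The split between them differed between the libraries. Smad2-202 took 25.3% and 61.5% of the gene's TPM and Smad2-203 39.0% and 2.01%, on 217.1 and 7.71 counts, and the bounds of each did not overlap (for Smad2-202, 2.88 to 6.25 TPM and 6.38 to 9.78 TPM). The summed share with the exon was nevertheless nearly equal in the 2 libraries.

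**Figure D3:**
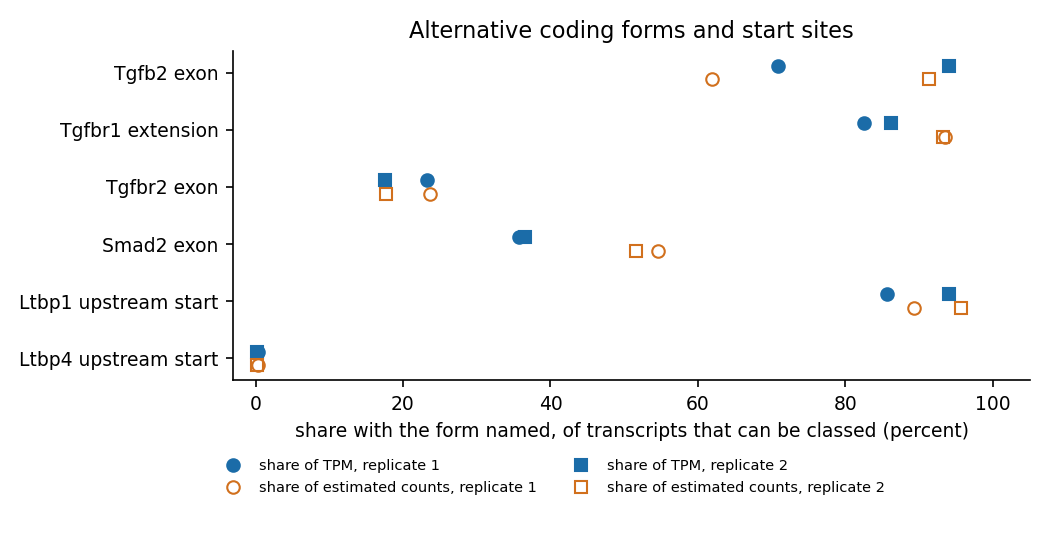
Share of transcripts, in percent, that hold the named exon, extension or start, among those that could be classed; blue symbols are shares of TPM and orange open symbols shares of estimated counts, with circles for replicate 1 and squares for replicate 2. The upstream start takes most of Ltbp1 and almost none of Ltbp4, the Tgfb2 exon differs most between libraries, and the Smad2 exon differs most between the scales.

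By mean TPM the 10 genes ran, from the top, Ltbp4, Ltbp3, Ltbp1, Tgfbr2, Smad3, Tgfb1, Tgfb3, Smad2, Tgfbr1 and Tgfb2. Most neighbours in this order did not overlap between the libraries. Ltbp1 and Tgfbr2 did overlap in range, though Ltbp1 was higher within each library. Tgfbr2 and Smad3 also overlapped, and their order differed: Smad3 was higher in replicate 1 and Tgfbr2 in replicate 2. With complete coding transcripts only, 7 of the 10 kept their place, and Smad3 stood below Tgfb1 and Tgfb3.

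The libraries were then compared on gene counts. With 1 library a side there is no test of a condition, so a two-sided exact binomial test was used that asks only whether reads of the 2 libraries differ beyond counting noise, adjusted by Benjamini-Hochberg over the 15939 genes that averaged 20 counts or more. Of the 10 genes, 4 were higher in replicate 2 at an adjusted p under 0.05 (Tgfb2, Tgfbr2, Ltbp1 and Ltbp4), where 29.1% of all genes tested were called higher. Only Tgfb1 was lower, where 27.0% of all genes were called lower. Either way 5 of 10 were called, against 56.1% of all genes, which is close to the background. Only Tgfb2 was over 2-fold apart, as were 3.99% of all genes.

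These directions depend on the scaling. Counts were scaled by TMM, which takes most genes to be equal, and on that scale the median log2 ratio of replicate 2 over replicate 1 was -0.0056 over all genes tested. Scaling by the spike-in RNA, which made up 0.764% of counts in replicate 1 and 0.986% in replicate 2, put that median at -0.44. On the spike-in scale 7.16% of all genes tested were called higher in replicate 2 and 71.7% lower. Of the 10 genes, 2 were higher on that scale, Tgfb2 and Ltbp1, and 7 were lower, Tgfbr2 among them; the share lower is close to that of all genes.

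The widest differences were in Tgfb2 and Ltbp1. The log2 ratio of Tgfb2 was 1.11 with a counting standard error of 0.12 (exact binomial test, adjusted p = 1.40695e-20), and 0.67 on the spike-in scale, which is under 2-fold. That of Ltbp1 was 0.77 (SE 0.02), and 0.34 on the spike-in scale. Both were higher in replicate 2 on either scale. Ltbp4 had a log2 ratio of 0.44 (SE 0.01) that came to 0.0048 on the spike-in scale, where it was not called.

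The other genes lay within a narrower band. The log2 ratio of Tgfbr2 was 0.30 (SE 0.02; exact binomial test, adjusted p = 2.35682e-38) and turned to -0.14 on the spike-in scale. That of Tgfb1 was -0.13 (SE 0.04; exact binomial test, adjusted p = 0.00313), and -0.56 on the spike-in scale; it was not called with Bonferroni adjustment. Tgfb3, Tgfbr1, Ltbp3, Smad2 and Smad3 had log2 ratios between -0.14 and -0.00064 and were not called by the exact binomial test, with adjusted p from 0.100 for Smad2 to 0.979 for Ltbp3. By the spike-ins those 5 had ratios from -0.57 to -0.44 and all were called lower, as were 71.7% of all genes. The median absolute log2 ratio of the 10 was 0.14, beside 0.23 for all genes tested.

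**Figure D4:**
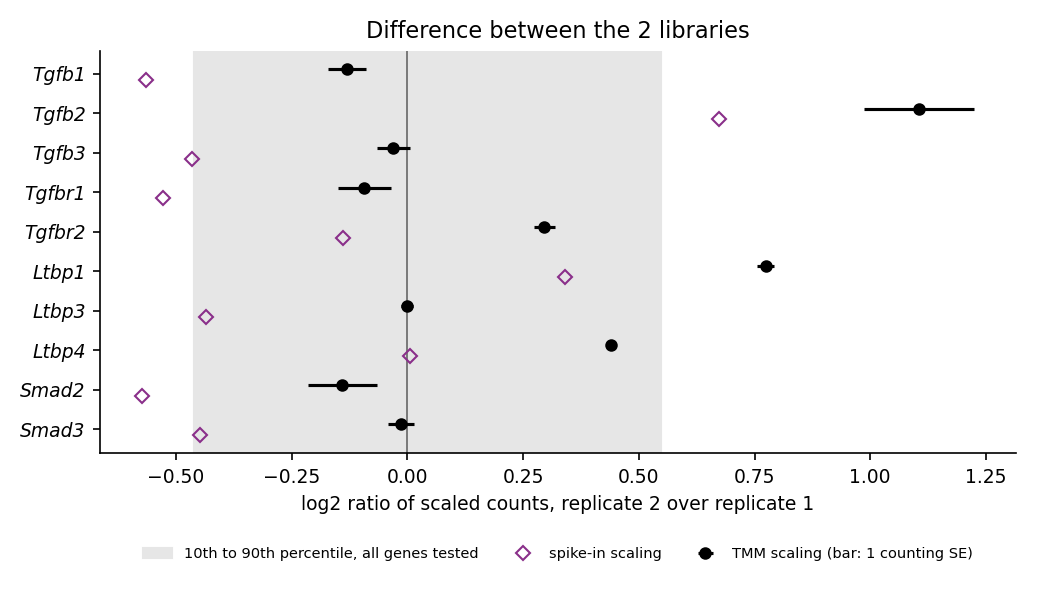
Log2 ratio of scaled counts, replicate 2 over replicate 1, for each gene; black points use TMM scaling with bars of 1 counting standard error, open diamonds use spike-in scaling, and the grey band is the 10th to 90th percentile of all genes tested on the TMM scale (-0.46 to 0.55). Tgfb2 and Ltbp1 lie right of the band on the TMM scale, and Tgfbr2 is right of 0 by TMM and left of 0 by the spike-ins.

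Summed markers of the cell types went both ways between the libraries. The 3 fat markers summed to 2370 TPM in replicate 1 and 3122 TPM in replicate 2. All 3 were higher in replicate 2 by the exact binomial test on the TMM scale. On that scale 29.1% of all genes were called higher and 27.0% lower. The log2 ratios of Cfd, Plin1 and Adipoq were 0.49, 0.47 and 0.16. Spike-in scaling lowers each by about 0.43, which is close to the ratios of Cfd and Plin1 and exceeds that of Adipoq. The 4 blood and immune markers summed to 585 and 1315 TPM, with 2 higher, the hemoglobin genes Hba-a1 and Hbb-bs, and 1 lower, the macrophage gene Cd68. The stroma markers summed to 640 and 547 TPM with 1 of 4 higher and 3 lower, and the granulosa markers to 7777 and 6691 TPM with 2 of 5 higher and 3 lower. Oocyte markers (305 and 246 TPM, 2 of 4 lower), oviduct markers (764 and 685 TPM, 1 of 3 higher and 2 lower), smooth muscle markers (2680 and 2347 TPM, 1 of 3 higher and 1 lower), endothelium markers (93.4 and 86.0 TPM, 1 of 3 lower), theca and luteal markers (2363 and 2257 TPM, 2 of 4 higher and 2 lower) and platelet markers (33.3 and 31.0 TPM, none of 2 tested called) were lower in sum in replicate 2. The sums are of TPM and weigh the most abundant gene most, while the calls use TMM-scaled counts. Cyp11a1, for example, was at 1341.96 and 1325.08 TPM and was called higher. None of these markers was at 0 in either library. Their part in the ratios of Tgfb2, Tgfbr2, Ltbp1, Ltbp4 and Tgfb1 was not tested.

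Most other genes of the pathway were detected as well. Of 6 other TGF-beta family receptors and co-receptors, 5 were detected, with a median of 39.5 TPM. Eng, a co-receptor of endothelium, was at 161.02 TPM in replicate 1 and 167.93 TPM in replicate 2 (164 ± 4.89 TPM), above both Tgfbr1 and Tgfbr2. Acvrl1, a type I receptor of endothelium, was at 60.3 ± 1.77 TPM, Tgfbr3, the co-receptor betaglycan that presents TGF-beta2, at 52.0 ± 6.44 TPM, the activin type I receptor gene Acvr1b at 27.1 ± 1.03 TPM, and Bambi, a decoy receptor, at 23.2 ± 3.97 TPM. The nodal receptor gene Acvr1c, at 0.825 ± 0.12 TPM, was the 1 that did not reach 1 TPM in both libraries. It had 132 counts in replicate 1 and 110 in replicate 2, and its mean was 1.23 by posterior mean TPM. On the TMM scale 2 of the 6, Eng and Bambi, were higher in replicate 2, beside 29.1% of all genes. Of the 6, 1 was lower, Tgfbr3, beside 27.0% of all genes. Scaled by the spike-ins, none was higher and 5 were lower, where 7.16% and 71.7% of all genes were called.

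Genes that store or release the latent complex were about as abundant as the 10 themselves, with 19 of 20 detected at a median of 54.8 TPM. Bgn, the proteoglycan biglycan, which binds TGF-beta, was at 435.3 and 289.66 TPM (362 ± 103 TPM). The membrane protease gene Mmp14 was at 355 ± 19.1 TPM. Itgav, the alpha chain of the integrins that activate latent TGF-beta, was at 274 ± 48.4 TPM. It rested on 4999 and 5046 counts, beside 25838 and 20102 for Mmp14. The part of short records in the Itgav level was not tested. On the TMM scale 7 of the 20 were higher in replicate 2 and 6 lower, beside 29.1% and 27.0% of all genes. The list's median log2 ratio was 0.03. Bgn and Mmp14 were among the lower and Itgav among the higher. The spike-in scale gave none higher and 18 lower, beside 7.16% and 71.7% of all genes.

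Downstream of the receptors, 14 of 15 SMAD transducers and partners were detected, with a median of 30.2 TPM. Smad4, the partner shared by SMAD2 and SMAD3, was at 128.7 TPM in replicate 1 and 88.11 TPM in replicate 2 (108 ± 28.7 TPM). In TPM it stood above Smad2 and Smad3 in both libraries. Its counts, 4275 and 3211, were below those of Smad3, 5869 and 4724, and their log2 ratio was -0.11. TPM divides by length, and the part of short records in the Smad4 level was not tested. Hgs, an endosomal protein that helps present SMADs to the receptor, was at 140 ± 8.17 TPM, and Fkbp1a, which binds and restrains the type I receptor, at 87.7 ± 19.5 TPM. On the TMM scale 5 of 14 tested were higher in replicate 2 and 8 lower, beside 29.1% and 27.0% of all genes. On the spike-in scale 2 were higher and 11 lower, beside 7.16% and 71.7% of all genes.

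All 13 SMAD inhibitors and turnover genes were detected, with a median of 25.8 TPM. The corepressor gene Tgif1 was at 151.92 and 84.56 TPM (118 ± 47.6 TPM), Pmepa1, which keeps SMADs from the receptor, at 100.2 ± 12.8 TPM, and the corepressor gene Ski at 90.1 ± 7.76 TPM. On the TMM scale 5 of 13 were higher in replicate 2 and 4 lower, beside 29.1% and 27.0% of all genes. Ski was among the higher, and Tgif1 and Pmepa1 among the lower. Scaled by the spike-ins, none was higher and all 13 were lower, beside 7.16% and 71.7% of all genes.

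The non-SMAD branch, through which the receptors also act on kinases and small GTPases, had 9 of 9 genes detected at a median of 33.0 TPM. Rhoa, a GTPase of the cytoskeleton, was at 102 ± 31.1 TPM, the p38 kinase gene Mapk14 at 77.1 ± 1.94 TPM, and Daxx, an adaptor of the type II receptor, at 53.1 ± 3.10 TPM. On the TMM scale 3 of 9 were higher in replicate 2 and 3 lower, beside 29.1% and 27.0% of all genes. Rhoa and Mapk14 were among the higher. With the spike-ins 1 was higher and 7 were lower, close to the 7.16% and 71.7% of all genes.

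Genes known to respond to TGF-beta had the highest median of these lists, 100.2 TPM, with 19 of 19 detected. Acta2, the smooth muscle actin, was at 2152 ± 239 TPM and Tagln, another smooth muscle protein, at 1043 ± 34.7 TPM. Both are also abundant in muscle of the ovary and oviduct. Ccn2, a matrix-associated growth regulator, was at 216.59 TPM in replicate 1 and 465.93 TPM in replicate 2. On the TMM scale 11 of 19 were higher in replicate 2, Ccn2 among them, and 4 lower, Acta2 among them, where 29.1% and 27.0% of all genes were called; the list's median log2 ratio was 0.08. With the spike-ins 2 were higher and 14 were lower, close to the 7.16% and 71.7% of all genes called on that scale. Ltbp2, Pmepa1, Skil, Smad6, Smad7 and Tgif1 stand in more than 1 of these lists.

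**Figure D5:**
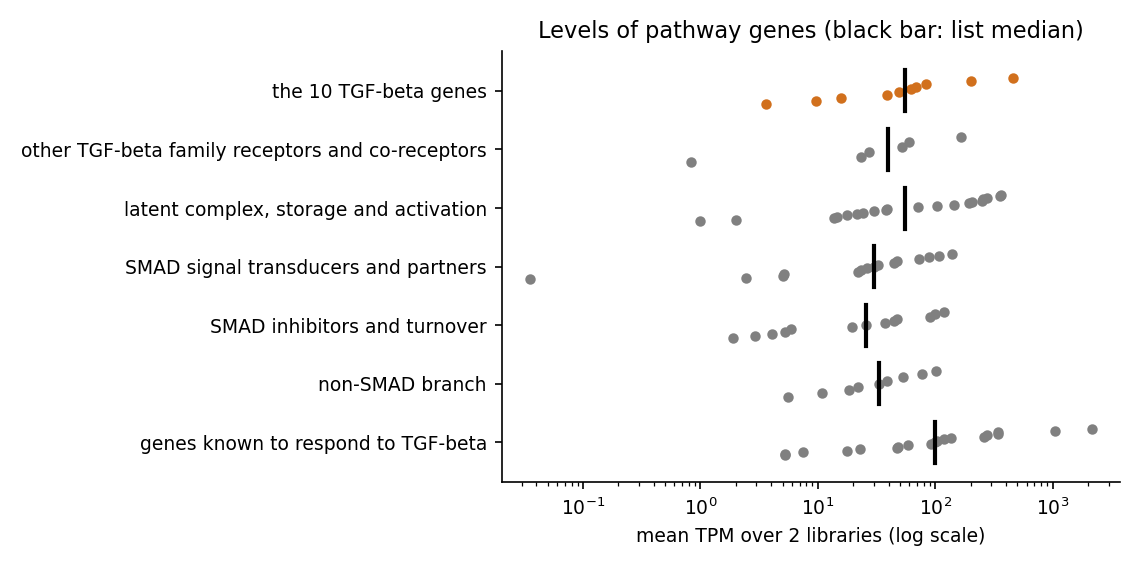
Mean TPM over the 2 libraries, on a log axis, of the 10 genes (orange) and of the genes of 6 pathway lists (grey), each point 1 gene, with the list median as a black bar. The 10 genes, at a median of 55.4 TPM, lie close to the latent complex list at 54.8 TPM, and the responsive genes have the highest median at 100.2 TPM.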

How the data were processed

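Genes and transcripts of each library were quantified by the authors on mm10 with GENCODE M4, per the notes deposited with the files; aligner and quantifier: not given in the sources used here. For every gene and transcript the authors deposited expected counts (estimated reads, not whole), TPM and FPKM, and each transcript's percent of its gene's TPM. Posterior mean versions and bounds were deposited too. Splice junction and contig files on mm9 were not used here.

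Counts were rounded and scaled by TMM (edgeR 4.0.16, R 4.3.3). The log2 ratio used a prior count of 1. The exact binomial test (scipy 1.17.1, Python 3.11.15) was run on counts simulated with counting noise only. That is the noise it assumes, so the run cannot show how it behaves where libraries differ by more. DESeq2 1.42.0 gave alternative size factors. Standard errors cover counting only, as the reads carry no molecular identifiers.

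Names, coordinates and exons came from GENCODE M21 on the same build; 42462 of 43346 identifiers matched, with all 46 transcripts of the 10 genes, of which 41 had the same length in M21. All 10 genes and each transcript with a mean share of at least 10% were named, with the 3 highest genes of each list and all genes of lists of up to 6; other genes named for their form or call were chosen after their values were seen. The members and lists were chosen with earlier results of these data known. Ctgf was unmatched and is held as Ccn2.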

Additional observations from a re-analysis of the deposited data

How the results depend on the processing

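DESeq2 size factors and posterior mean counts changed no call of the 10 genes, FPKM kept their order, and neither no filter nor a minimum of 100 counts changed how many were called. With spike-in scaling, which called 7.16% of all genes higher and 71.7% lower, 2 members were higher and 7 lower, 0 were over 2-fold apart, and Tgfbr2 turned to a log2 ratio of -0.14 (exact binomial test, adjusted p = 1.38483e-09). On that scale the list genes higher were 0 for receptors, 0 for the latent complex, 2 for SMAD transducers, 0 for inhibitors, 1 for the non-SMAD branch and 2 for responsive genes, and those lower were 5, 18, 11, 13, 7 and 14 in the same order. Bonferroni left 0 members lower, and on the log2(TPM + 1) scale 0 members were over 2-fold apart, Tgfb2 being at 0.84. Over complete coding transcripts alone, a choice made after seeing the data, the mean of Ltbp4 was 341.87 TPM and that of Smad3 37.82 TPM. The share of Tgfb1-201 by posterior means was 98.7%. By estimated counts, also added later, the share with the Tgfbr1 extension was 93.4% and that with the Smad2 exon 53.1%, and by posterior mean TPM the latter was 35.3%. The cause was not tested beyond what each setting changes by its construction. Leaving out a library leaves no ratio. No paired analysis was possible because the design has 1 group. Tgfb2 and Smad2, on 231 to 887 counts, were the least precise.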
